A study of Caenorhabditis elegans with 2 samples.

Results

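The 8 genes described here encode cytosolic translation elongation factors of Caenorhabditis elegans: eef-1A.1 and eef-1A.2, eef-1B.1 and eef-1B.2, eef-1G, eef-2, iff-1 and iff-2. They were taken by symbol from the WBcel235 annotation, which holds 46890 nuclear genes, 19973 of them protein-coding, and all 8 symbols were found. Chromatin immunoprecipitation followed by sequencing had been done on whole L4 larvae, male and female pooled, of strain OP231. Per the labels this strain has the genotype unc-119(ed3) III; wgIs231 and stably expresses ZK546.5 fused at its C terminus to GFP-FLAG. The 2 samples were biological replicates of this 1 group, each described by a list of 30000 peaks, and the authors also deposited a pooled list of 30000 peaks and a list of 304 reproducible peaks. Since whole larvae were used, strong occupancy in few cells and weak occupancy in many cannot be told apart.

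Elongation is the step of protein synthesis in which the ribosome adds amino acids to the growing chain. The factor eEF1A, encoded by the eef-1A genes, brings aminoacyl-tRNA to the ribosome in its GTP-bound form, and the eEF1B complex, to which the eef-1B and eef-1G products belong, exchanges its GDP for GTP. The factor eEF2, encoded by eef-2, moves the ribosome along the mRNA by a codon at a time. The products of iff-1 and iff-2 are homologues of eIF5A, which was named as an initiation factor, carries the modified amino acid hypusine and helps ribosomes through sequences that are slow to translate. In C. elegans iff-1 is known for its role in the germline. The eef-1A.1 promoter, under the gene's older name eft-3, is widely used to drive transgenes in most tissues.

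The sequences under 4 summits are shown first, since they cover 3 of the 4 genes with a reproducible peak and the eef-1A copy without one. A summit is the base at which the authors placed the highest signal of a peak. Each sequence is the part upstream of the gene's outermost 5′ end of a 201-base window centred on the pooled summit, read from WBcel235 in the direction of the gene. Capitals mark matches, on either strand, to the words that are described further on, which are ACCGTA (reverse complement TACGGT) and ACGCAG (reverse complement CTGCGT).
eef-1A.1, chrIII:6972001-6972201, minus strand: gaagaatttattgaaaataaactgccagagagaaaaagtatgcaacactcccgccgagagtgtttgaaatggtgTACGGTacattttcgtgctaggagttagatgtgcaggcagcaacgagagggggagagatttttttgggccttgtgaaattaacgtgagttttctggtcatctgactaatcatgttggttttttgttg
iff-2, chrII:8561368-8561544, minus strand: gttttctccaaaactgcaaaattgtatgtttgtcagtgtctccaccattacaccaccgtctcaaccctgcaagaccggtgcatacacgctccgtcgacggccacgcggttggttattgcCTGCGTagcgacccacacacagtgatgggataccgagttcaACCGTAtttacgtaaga
eef-1G, chrV:10965638-10965718, plus strand: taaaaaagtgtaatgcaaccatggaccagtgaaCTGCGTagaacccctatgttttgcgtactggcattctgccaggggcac
eef-1A.2, chrX:7823260-7823460, plus strand: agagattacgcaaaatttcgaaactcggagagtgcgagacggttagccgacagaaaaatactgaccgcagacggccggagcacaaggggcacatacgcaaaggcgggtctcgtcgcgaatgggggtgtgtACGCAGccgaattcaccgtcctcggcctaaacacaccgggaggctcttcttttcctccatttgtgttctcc
The eef-1A.1, iff-2 and eef-1A.2 sequences hold their summits at base 101, and that of eef-1G ends before its summit, which lay in the 5′ untranslated region (UTR). The eef-1A.1 window also holds annotated exon bases of the microRNA gene cel-mir-5549, and the eef-1A.2 window those of the non-coding RNA gene R03G5.8.

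Of the 8 genes, 4 had a reproducible summit within 1000 bp of an annotated 5′ end: eef-1A.1, eef-2, iff-2 and eef-1G. The same held for 1.76% of protein-coding genes. The same 4 were counted within 500 bp, where the share was 1.39% of protein-coding genes. Within 200 bp eef-2, iff-2 and eef-1G were counted, against 0.656%, and these 3 were also the ones to which a reproducible summit had its nearest 5′ end, against 0.896%. A pooled summit within 1000 bp was present at 7 genes, all except iff-1, against 53.0% of protein-coding genes. All 8 had a summit within 1000 bp in replicate 1 (53.4% of protein-coding genes) and in replicate 2 (53.5%). The pooled list was labelled by the authors as peaks and background, so a weak entry in it need not be a binding site. Since 1 group was measured and the genes were picked with earlier results of these data known, these counts are descriptions and no test was made.

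**Figure D1:**
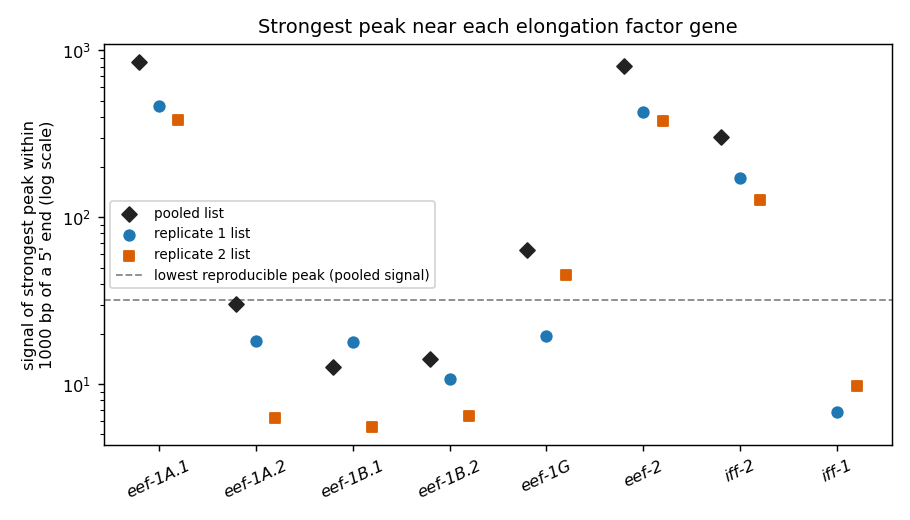
Signal of the strongest peak within 1000 bp of a 5′ end of each gene (y axis, log scale, the authors' units) in the pooled list (diamonds), replicate 1 (circles) and replicate 2 (squares), with 1 point per list and no error bars. The dashed line is the lowest pooled signal of a reproducible peak, 32.2, and it applies to the diamonds. The values of eef-1A.1, eef-2 and iff-2 lie above those of the other 5 genes in each list, and iff-1 has no pooled point.

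The strongest peak was that of eef-1A.1 (WBGene00001168, chrIII:6970026-6971712, minus strand), the gene for the carrier of aminoacyl-tRNA. Its peak at chrIII:6971890-6972285 had a signal of 849 in the pooled list, 466 in replicate 1 and 383 in replicate 2, where it ranked 9, 9 and 10. It was therefore near the top of every list, although its summit was the farthest from the member's own 5′ end among the 4 reproducible peaks. The pooled summit was intergenic, 389 bp upstream of the single annotated 5′ end and 421 bp upstream of the start codon. The 5′ ends of 2 other genes were nearer: cel-mir-5549, 16 bp away, and rfc-4, 152 bp away. The gene rfc-4, which encodes a subunit of the clamp loader of DNA replication, is transcribed in the opposite direction, and its 5′ end lies 541 bp from that of eef-1A.1. The summit therefore lay between both coding genes and closer to rfc-4, and the peak cannot be assigned to either from its position.

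The eef-2 peak came next. The gene (WBGene00001167, chrI:9163531-9166952, plus strand) encodes the translocation factor. Its peak at chrI:9163289-9163758 had a signal of 809.8 in the pooled list, 428 in replicate 1 and 377 in replicate 2, with rank 11 in each. In each list eef-2 came just below eef-1A.1, whose signal was 1.05 times as high in the pooled list, 1.09 times in replicate 1 and 1.02 times in replicate 2. Between replicates, the ratio of 1 peak's signals varied more than this over the reproducible peaks, so the order of eef-1A.1 and eef-2 was not resolved. Its summit was 7 bp upstream of the outermost 5′ end in the pooled list and in replicate 1, and 10 bp upstream in replicate 2. It was closer to eef-2 than to the divergent gene clsp-1, whose 5′ end was 258 bp from the summit. A far weaker second pooled summit (signal 9.16, rank 20097) lay in a coding exon, 946 bp downstream of an internal 5′ end. Replicate 1 listed 2 more weak summits near eef-2, with signals of 5.19 and 4.26, and replicate 2 none.

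The third was iff-2 (WBGene00002065, chrII:8559375-8561367, minus strand), an eIF5A gene. Its peak at chrII:8561315-8561578 had a signal of 304 in the pooled list (rank 30), 173 in replicate 1 (rank 30) and 127 in replicate 2 (rank 33). The summit was intergenic and stood at the same base in the pooled list and replicate 1, 77 bp upstream of the outermost 5′ end, and 78 bp upstream in replicate 2. No other gene had a nearer 5′ end: the snoRNA gene F54C9.12 was 672 bp away and the divergent coding gene F54C9.14 was 858 bp away. The annotated start codon lay 489 bp downstream of the summit. A second annotated 5′ end of iff-2 lies close to that codon. Far weaker summits lay 594 bp downstream of a 5′ end in replicate 1 (signal 4.78) and 686 bp upstream in replicate 2 (10.1). The latter was nearer to F54C9.14. The eef-2 signal was 2.67 times that of iff-2 in the pooled list, 2.48 times in replicate 1 and 2.98 times in replicate 2.

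The fourth, eef-1G (WBGene00008920, chrV:10965719-10967922, plus strand), encodes the gamma subunit of eEF1B and had a weaker peak that the replicates ranked differently. The peak at chrV:10965566-10965909 had a signal of 63.3 in the pooled list (rank 103), 19.4 in replicate 1 (rank 289) and 45.02 in replicate 2 (rank 59). It was the only one of the 4 reproducible peaks with a lower signal in replicate 1 than in replicate 2. The pooled summit was in the 5′ UTR, 19 bp downstream of the outermost of the gene's 5 annotated 5′ ends and 87 bp upstream of the first start codon. The 5′ end of the divergent gene ctf-4 was 199 bp from the summit, and the summit was nearest to eef-1G. Below it in the order of pooled signal came eef-1A.2, and eef-1G exceeded that gene 2.10 times in the pooled list and 7.13 times in replicate 2, but only 1.06 times in replicate 1.

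The remaining 4 genes had weak peaks. At eef-1A.2 (WBGene00001169, chrX:7823654-7825769, plus strand), the second eEF1A gene, the signal was 30.2 in the pooled list (rank 352), 18.3 in replicate 1 (rank 331) and 6.31 in replicate 2 (rank 18645). The pooled value was just under 32.2, the lowest of a reproducible peak, and the reproducible list holds exactly the pooled peaks of ranks 1 to 304. The pooled summit was intergenic, 294 bp upstream of the 5′ end, and R03G5.8 had a nearer 5′ end, at 165 bp.

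Both eEF1B exchange-factor genes were low. At eef-1B.1 (WBGene00018846, chrIII:7972382-7973386, minus strand) the signal was 12.6 in the pooled list (rank 8217), 18.0 in replicate 1 (rank 340) and 5.52 in replicate 2 (rank 23866). The summits were 4 bp upstream of the 5′ end, 44 bp upstream and 61 bp downstream. The pooled and the replicate 1 summit lay in an exon of F54H12.9, a non-coding RNA gene whose 5′ end was 63 bp from the pooled summit and 2 bp from that of replicate 2, there nearer than that of eef-1B.1. At eef-1B.2 (WBGene00012768, chrIV:15037331-15039551, plus strand) the signal was 14.2 in the pooled list (rank 5350), 10.8 in replicate 1 (rank 1766) and 6.48 in replicate 2 (rank 17656). The pooled summit was 41 bp upstream of the 5′ end, with no other gene's 5′ end within 1000 bp, and the replicate 2 summit lay in a coding exon, 106 bp downstream of a 5′ end. In replicate 2 both genes ranked far below the 4 genes with reproducible peaks. Weaker summits in coding exons were also listed, for eef-1B.1 in replicate 1 (signal 7.05) and for eef-1B.2 in the pooled list (8.08).

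At iff-1 (WBGene00002064, chrIII:9745862-9747193, minus strand), the second eIF5A gene, no pooled summit lay within 1000 bp of its 3 annotated 5′ ends. Its strongest replicate summits were in different parts of the gene, in an intron in replicate 1 (signal 6.85, rank 8252) and in a coding exon in replicate 2 (9.80, rank 5579), 454 bp apart. Neither was at the shared upstream region with cdk-1, the divergent gene whose 5′ end is 279 bp away and which encodes the cyclin-dependent kinase of mitosis. Replicate 1 also listed a weaker intergenic summit (signal 3.91), 844 bp downstream of a 5′ end of iff-1.

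**Figure D2:**
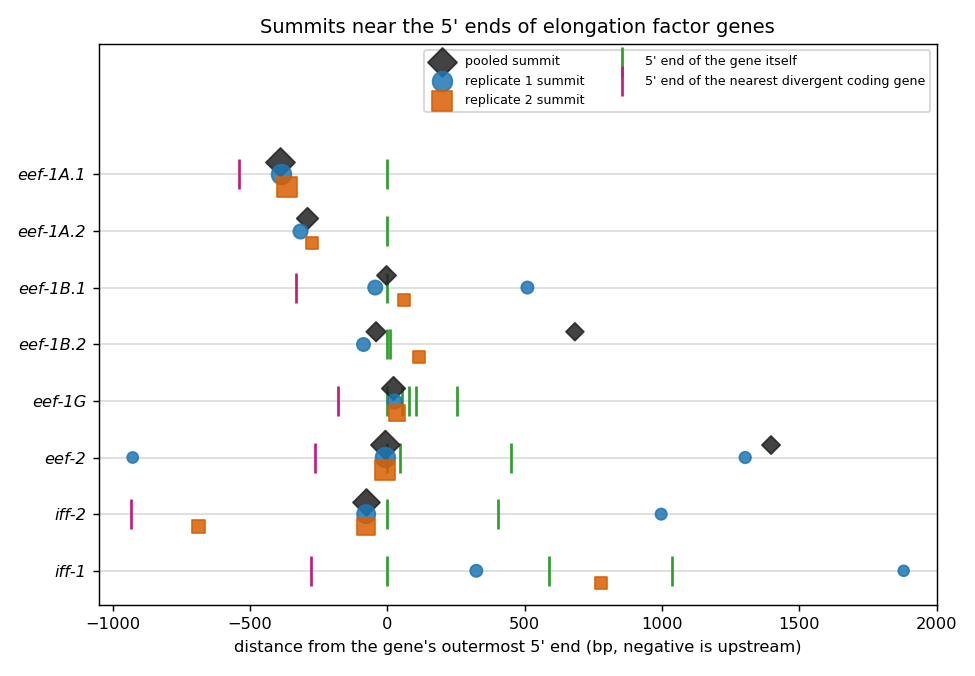
Positions of all summits within 1000 bp of any 5′ end of each gene, as distance from the gene's outermost 5′ end (x axis, bp, negative is upstream), for the pooled list (diamonds), replicate 1 (circles) and replicate 2 (squares); symbol area grows with log10 signal. Green ticks are the gene's own 5′ ends and magenta ticks the 5′ end of the nearest divergent coding gene where within 1000 bp. The 3 large summits of eef-1A.1, eef-2 and iff-2 coincide within 22 bp between replicates, and those of iff-1 are 454 bp apart.

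The replicates placed the summits of the 4 reproducible peaks close together. The distance between replicate summits was 1 bp at iff-2, 3 bp at eef-2, 11 bp at eef-1G and 22 bp at eef-1A.1. The median over the 275 reproducible peaks with a summit within 100 bp in both replicates was 28 bp, and the middle 50% ranged from 11 to 52 bp. At the other genes the strongest summits were 42 bp (eef-1A.2), 105 bp (eef-1B.1), 206 bp (eef-1B.2) and 454 bp (iff-1) apart. These last values were not limited to 100 bp, so their comparison with the 275 peaks is not like for like.

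The ratio of replicate 1 to replicate 2 signal set eef-1G apart from the other 3 reproducible members. How signal was scaled from list to list is not stated in the sources, so each ratio is read against the same ratio at other peaks. The median over the 275 peaks was 1.16, and the middle 50% ranged from 0.913 to 1.49. The ratio was 1.22 at eef-1A.1, 1.13 at eef-2 and 1.36 at iff-2, all inside that range. It was 0.431 at eef-1G, and 2.91% of these peaks had a smaller ratio. It was 2.89 at eef-1A.2, 3.25 at eef-1B.1, 1.66 at eef-1B.2 and 0.699 at iff-1. These 4 have no reproducible peak. The 275 all come from pooled ranks 1 to 304 and had a summit within 100 bp in both replicates. The 4 ratios are therefore not like for like with those of the 275.

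The pooled signal was close to the sum of the replicate signals, with a median ratio of 1.01 over the 275 peaks. It was 1.00 at eef-1A.1, 1.01 at eef-2, 1.01 at iff-2 and 0.982 at eef-1G. At the weaker genes it was 1.23 (eef-1A.2), 0.824 (eef-1B.2) and 0.537 (eef-1B.1). At eef-1B.1 the pooled signal of 12.6 was below that of replicate 1 alone. In replicate 1 the list also holds 25 mitochondrial peaks, 23 of them among its 304 strongest. Ranked among nuclear peaks alone, eef-1G was at 266, eef-1A.2 at 308 and eef-1B.1 at 317 in replicate 1.

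With both replicates cut to their 304 strongest peaks, the same 4 genes had a summit within 1000 bp in both, against 1.03% of protein-coding genes. With the 152 strongest of each the count was 3, since eef-1G no longer reached it in replicate 1. The share of protein-coding genes at this cut was not computed.

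**Figure D3:**
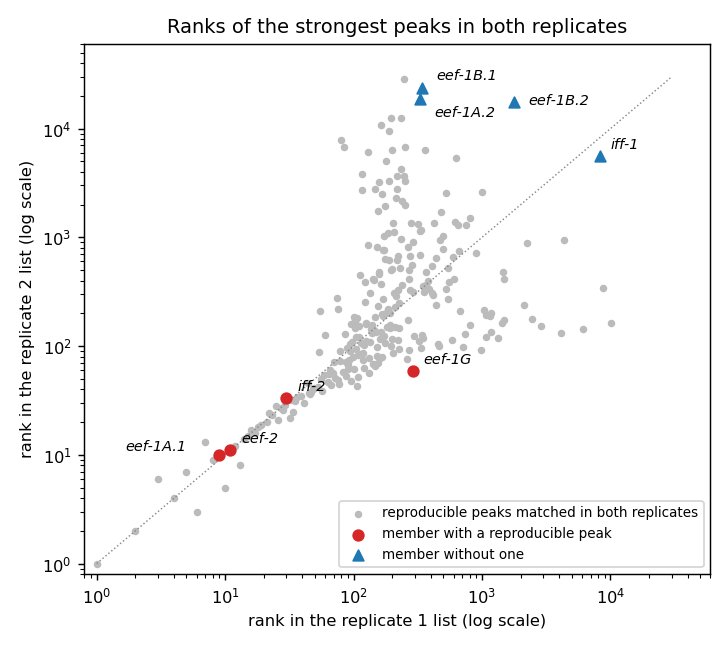
Rank of the strongest peak of each gene in replicate 1 (x axis, log scale) against its rank in replicate 2 (y axis, log scale). Red circles are the 4 genes with a reproducible peak, blue triangles the 4 without, grey points the 275 reproducible peaks matched in both replicates, and the dotted line marks equal ranks. The points of eef-1A.1, eef-2 and iff-2 lie on the line, eef-1G lies below it at 289 and 59, and eef-1A.2 and eef-1B.1 lie far above it.

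Among all protein-coding genes, eef-1A.1 and eef-2 stood near the top. By the strongest pooled peak within 1000 bp, 13 protein-coding genes had a higher value than eef-1A.1, 17 than eef-2, 52 than iff-2, 146 than eef-1G and 388 than eef-1A.2. Neighbouring genes that share a peak are counted separately here. There were 3025 genes above eef-1B.2 and 4214 above eef-1B.1. The median over all 19973 protein-coding genes, with the 47.0% that had no summit placed below all others, was 7.84, whereas the fourth and the fifth of the 8 members were at 63.3 and 30.2. The 90th percentile over the 10590 genes with a pooled summit was 19.7, and 5 of the 7 members with a pooled summit were above it.

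**Figure D4:**
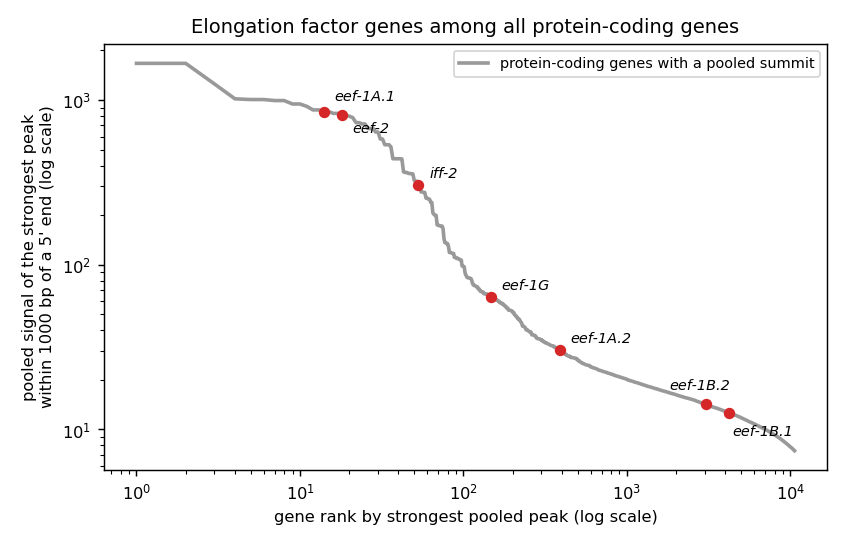
Signal of the strongest pooled peak within 1000 bp of a 5′ end (y axis, log scale) against the rank of the gene by that signal (x axis, log scale) for the 10590 protein-coding genes with a pooled summit (grey line), with the 7 members that have one as red points. The points of eef-1A.1 (849) and eef-2 (809.8) are near the top of the curve, and eef-1B.2 (14.2) and eef-1B.1 (12.6) lie near the curve's median of 11.5.

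Each of the 3 paralog pairs was then compared within a list. The eef-1A copies have coding sequences of 1389 bases each that are 94.0% identical, yet the peak upstream of eef-1A.1 had 28.2 times the signal of that upstream of eef-1A.2 in the pooled list, 25.5 times in replicate 1 and 60.7 times in replicate 2. The 5′ end of eef-1A.1 is not the nearest to its summit, as described above, and under the rule of the nearest 5′ end neither copy would be counted. The coding sequences of iff-2 and iff-1 are 78.7% identical over 483 aligned bases. The iff-2 signal was 25.2 times that of iff-1 in replicate 1 and 12.9 times in replicate 2. No pooled value was listed for iff-1. Some of these ratios rest on weak entries. The eef-1A.2 signal in replicate 2 was 6.31, below that list's median of 6.95. The iff-1 signals were 6.85 in replicate 1, where the median was 5.38, and 9.80 in replicate 2. They came from summits 454 bp apart. The ratios of 60.7, 25.2 and 12.9 are therefore uncertain in size. The eef-1B copies are 70.2% identical over 638 aligned bases and were both low, with a ratio of eef-1B.1 to eef-1B.2 of 0.887 in the pooled list, 1.67 in replicate 1 and 0.853 in replicate 2. Their order thus depended on the list. In 2 of the 3 pairs, then, exactly 1 copy had a reproducible summit within 1000 bp.

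Reads from near-identical copies can be lost or misplaced, so the repeat content of the regions was measured with words of 30 bases. All 30-base words of the strongest pooled peak of each of the 7 genes occurred once in the genome. Within 1000 bp on either side of the outermost 5′ end, the share of unique words was 94.1% at eef-1A.1, 94.3% at eef-1A.2, 98.9% at eef-1B.1 and 99.9% or more at the other 5 genes. Of the 30-base words in the eef-1A.1 coding sequence, 14.0% also occur in that of eef-1A.2. The read length is not stated in the sources.

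Divergent coding genes were found near members with and without a reproducible peak. The share over all protein-coding genes was not computed, and a link to the peaks was not tested. A divergent coding gene starts within 1000 bp at all 4 genes with one, at 180 bp (ctf-4, upstream of eef-1G), 265 bp (clsp-1, eef-2), 541 bp (rfc-4, eef-1A.1) and 935 bp (F54C9.14, iff-2). It also does so at 2 of the 4 without one, at 279 bp (cdk-1, iff-1) and 331 bp (aco-2, eef-1B.1). The nearest divergent gene is 6730 bp from eef-1A.2 and 8353 bp from eef-1B.2.

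The peaks also differed in width. Of the pooled peaks 29937 were 344 bp wide and 63 had another width. All 63 were among the 304 reproducible peaks, of which the other 241 had the common width. The peaks of eef-2 (470 bp), eef-1A.1 (396 bp) and iff-2 (264 bp) were among the 63, while that of eef-1G had the common width.

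Of 8 short words searched on both strands in the 201-base windows, ACCGTA was present at the 3 strongest members, eef-1A.1, eef-2 and iff-2, and at none of the other 4 genes with a pooled summit. It was centred 23.5 bases upstream of the summit at eef-1A.1, 6.5 bases upstream at eef-2 and 62.5 bases downstream at iff-2, in the direction of the gene. ACCGTA was in 21.7% of all 304 reproducible windows, in 62% of the 50 strongest and in 5.30% of the 29653 windows of other pooled peaks. Of the 7854 other pooled windows within 500 bp of a protein-coding 5′ end, 5.72% held it. These 3 members are all among the 50 strongest, so 62% is the share of peaks of like strength. In the 100 bp window, iff-2 no longer held it. The 8 words were chosen with earlier results of these data known. The shares given here and in the next paragraph are therefore not independent of that choice. A higher share in reproducible windows than in other pooled windows is a description only, and it was not tested.

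ACGCAG was in the windows of eef-1G (at 2 places), iff-2 and eef-1A.2. It was in 27.0% of reproducible windows and 4.91% of other pooled windows, or 6.05% of the 7854 that lie within 500 bp of a protein-coding 5′ end. The eef-2 window also held GAGCGC at 2 places (22.4% of reproducible and 3.09% of other pooled windows) and CCAAT at 2 places (28.3% and 36.3%). The eef-1B.2 window held TATAAA, centred 4.5 bases from its summit (11.8% and 22.4%). TGCGTCTC, GCGCAC and GAGAGAGA were in none of the 7 windows. The shares of these words were 11.8%, 22.7% and 8.22% of reproducible windows and 1.62%, 3.16% and 2.03% of other pooled windows. The eef-1B.1 window held none of the 8 words. The GC content of the windows ranged from 34.8% at eef-1B.2 to 55.2% at eef-1A.2, neither of which has a reproducible peak. The median was 43.8% over reproducible windows and 34.3% over other pooled windows. Over other pooled windows within 500 bp of a protein-coding 5′ end it was 35.3%. GAGCGC and GCGCAC share the bases GCGC, and a match is only a description of the window.

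For each reproducible peak of a member, the 2 other reproducible peaks of the most similar rank in the pooled and both replicate lists were taken, by the distance in log2 rank over these 3 lists. Each of these peaks is named by the nearest protein-coding 5′ end. For eef-1A.1 they were those at atp-1, which encodes a subunit of mitochondrial ATP synthase (ranks 8, 8 and 9), and at eef-2 itself. For eef-2 they were the peak nearest to vig-1, 421 bp away (13, 12 and 12), and the peak upstream of eef-1A.1. The nearest coding 5′ end to the latter is that of rfc-4, 152 bp away. For iff-2 they were the peaks nearest to taf-4, a subunit of the general transcription factor TFIID (297 bp away, ranks 32, 33 and 32), and rpl-3, a protein of the large ribosomal subunit (288 bp, ranks 28, 29 and 29). For eef-1G they were the peaks nearest to zfp-3 (345 bp, ranks 128, 262 and 76) and rpl-7, another protein of the large ribosomal subunit (322 bp, ranks 114, 203 and 87). The peaks named by atp-1, taf-4 and rpl-7 also lay within 1000 bp of a 5′ end of mcrs-1, pqn-59 and rab-11.1, respectively.

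Other genes of translation were counted in 4 further lists and in the ribosomal protein genes. Of 78 cytosolic ribosomal protein genes, a list added after the other values were known, 37 (47.4%) had a reproducible summit within 500 bp, against 4 of the 8 elongation factor genes and 1.39% of protein-coding genes. Of 36 genes in a list for initiation, chosen by symbol and including clu-1, ncbp-1 and ncbp-2, 3 did (8.33%). They were eif-3.C, a subunit of the eIF3 complex (signal 82.5, 254 bp from the summit), eif-6 (57.5, 341 bp) and clu-1 (35.6, 392 bp). At eif-6 the proteasome gene pbs-2 was nearer to the summit, at 325 bp, and at clu-1 the splicing gene prp-40 was nearer. None was counted of 16 genes of a mixed list for elongation outside the 8 members. It holds the mitochondrial elongation factor genes tufm-1, tufm-2, tsfm-1 and gfm-1, the eEF2 kinase gene efk-1, the abcf genes, the dph genes for the diphthamide of eEF2, and dhps-1 and dohh-1 for the hypusine of eIF5A. Within 1000 bp this list counted abcf-2 (signal 535, 872 bp), under a summit that ant-1.1 and T27E9.2 were nearer to. None was counted of 5 release and recycling genes or of 31 aminoacyl-tRNA synthetase genes. A pooled summit within 1000 bp was present at 30 of the 36, 11 of the 16, 3 of the 5 and 20 of the 31 genes. The same held for 53.0% of protein-coding genes. The difference between these lists and the 8 elongation factor genes was not tested.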

How the data were processed

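The text files that accompany the deposited lists state that the authors made each replicate list from that replicate's alignments and 1 control file, the pooled list from both replicates, and the reproducible list by thresholding these on the irreproducible discovery rate. The aligner and the peak caller were not given in the sources used here, nor was the scaling of the signal, and depth is unknown. The deposited signal value of a peak is the authors' own. It served to rank peaks within a list (rank 1 is the highest). Lists in ce11 coordinates were joined to the WBcel235 genome (the same build; no peak ran past a chromosome end) and Ensembl annotation release 115. The ce10 lists were not used.

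A summit was the peak start plus the offset in the last column, given 1-based. Distances run to the nearest 5′ end among a gene's annotated transcripts. Because of trans-splicing, the true start of transcription can be upstream of it. Replicate peaks were matched within 100 bp. Coding sequences of the longest isoforms were aligned globally with Biopython 1.88 (match 2, mismatch -1, gap opening -5, gap extension -1). The assignment of summits was tested on simulated data. Named genes were the 8 members, genes with a competing 5′ end, the 2 peaks most like each reproducible member peak, and members of 4 other translation lists with a reproducible summit. The members, lists and words were chosen with earlier results of these data known. Python 3.11.15, numpy 2.4.6 and pandas 2.3.3 were used. Nothing in the labels describes further cultures, so the replicates show only their own spread.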

Additional observations from a re-analysis of the deposited data

How the results depend on the processing

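The counts of members held within 1.5 times under all alternatives run: 3 or 4 members with a reproducible summit, 5 or 7 with a pooled summit and 3 or 4 among the strongest peaks of both replicates, over distances from 200 to 2000 bp, the nearest or the outermost 5′ end, whole peaks in place of summits, and fewer or more peaks. Within 200 bp and under the nearest 5′ end, eef-1A.1 was lost from the first count, and eef-1A.1 and eef-1A.2 from the pooled count. Without replicate 1 (the 304 strongest peaks of replicate 2 in place of the reproducible list) and without replicate 2 (those of replicate 1) the count was 4. Of these alternatives, shares of protein-coding genes were computed only for the reproducible list within 200 and 500 bp and under the nearest 5′ end. The number of paralog pairs in which exactly 1 copy was counted was 2, and it fell to 1 within 200 bp and to 1 with only the nearest 5′ end, since eef-1A.1 was no longer counted; without replicate 1 or without replicate 2, replaced in the same way, it was 2. Pairs of a window and a word found in it at least once numbered 9 over the 7 windows, and 15 with 300 bp windows, which hold more sequence. Other translation genes with a reproducible summit within 500 bp numbered 3, and 0 within 200 bp. The lists give no read numbers, so the counting error of a signal value could not be given.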

Other observations

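The ranks at eef-1A.2 and eef-1B.1, which stood at 331 and 340 in replicate 1 and beyond rank 15000 in replicate 2, were set beside other peaks of like rank, in a range of ranks picked afterwards. Of the 304 peaks at ranks 305 to 608 of replicate 1, 187 (61.5%) had no summit of replicate 2 within 100 bp, 29 (9.54%) had one beyond rank 15000 and 12 (3.95%) had one among its 304 strongest. Of the 281 nuclear peaks among the 304 strongest of replicate 1, 143 (50.9%) had one among the 304 strongest of replicate 2, as the 4 elongation factor genes with reproducible peaks did. The eef-1B.1 summits were 105 bp apart and would count as unmatched by this limit. In the other direction, of the peaks of replicate 2 at ranks 305 to 608, 224 (73.7%) had no summit of replicate 1 within 100 bp.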
